A study of Mus musculus with 88 samples.

Results

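Addition of the beta-adrenergic agonist isoproterenol (ISO) to lipopolysaccharide (LPS) was examined after 2 h in RAW 264.7, a macrophage-like line of mouse origin. Members were the 12 arrays of 88 whose labels name LPS plus ISO at 2 h (6 arrays) or LPS alone at 2 h (6 arrays). On each 2-colour array RNA of treated cells was hybridised with RNA of time-matched cells in medium, and each pair of arrays with exchanged dyes formed 1 set, so each group held 3 sets. LPS alone was given at 100 ng/ml with 100 pM lipid binding protein, and the combination was 100 ng/ml LPS with 50 nM ISO. The labels name lipid binding protein for LPS alone only, so the presence of ISO and the absence of that protein cannot be told apart in this comparison. Side comparisons used ISO alone at 50 nM for 2 h, LPS with 10 µM prostaglandin E2 (PGE2) for 2 h, and the same 2 LPS treatments at 1 h and 4 h. Whether the sets were separate cultures is not labelled, and p-values then reflect only how far sets differ, which may be technical spread.

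LPS is recognised by Toll-like receptor signalling, which activates NF-kB, MAP kinases and interferon regulatory factors and leads macrophages to make cytokines such as tumour necrosis factor and interleukins. Isoproterenol acts on beta-adrenergic receptors, which couple to the stimulatory G protein and raise cyclic AMP. Cyclic AMP activates protein kinase A, which phosphorylates CREB, a transcription factor that binds the cyclic AMP response element. In macrophages such ligands are known for modulating the response to LPS rather than for starting an inflammatory response of their own.

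Values are given as log2 ratios to medium, or as differences of such ratios (LPS plus ISO minus LPS). The direction of the ratios was inferred and is called likely. After ratios were turned by the dye labels, the median of 15 NF-kB subunits and feedback regulators lay above 0 on 6 of 6 LPS arrays (1.39 to 1.92) and on 6 of 6 LPS plus ISO arrays (1.36 to 1.88). Between 17.8 and 38.1% of probes per array were listed at exactly 0, and the meaning of that value is not stated in the labels or the table. The dye-swapped arrays of a set in these 2 groups correlated with r of 0.428 to 0.724 across probes. For sets 1 to 3 of ISO alone at 2 h, r was 0.152, −0.0587 and 0.0524. The NF-kB median on those ISO arrays was 0.0501 to 0.225, so the direction check above rests on the LPS arrays. Ratios to medium hold no expression level, so the labelled cell type could not be checked against the level of its markers. The 22 measured markers of other cell types differed between the groups by −0.26 to 0.12, with a median of 0.0029.

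For most genes the 2 h ratio was similar with LPS and with LPS plus ISO, and wide differences were seen in a small group. Of 10518 genes tested, 211 were at least 2-fold from medium with LPS and 212 with LPS plus ISO, whereas between the combination and LPS alone only 9 genes reached 2-fold, 2 of them higher and 7 lower. The median difference was 0, and the 5th and 95th percentiles were −0.203 and 0.167. Plk2, a polo-like kinase, Atf3, a stress-induced transcriptional repressor, and Rgs1, which shortens G protein signals, were lowest, and Edil3, a secreted integrin ligand, was highest. In RNA of whole cultures, a change in every cell and a larger one in part of the cells cannot be told apart.

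No gene passed adjusted p 0.05 when set number was left out of the model (limma, Benjamini-Hochberg; 0% of 10518 genes). The smallest adjusted p was 0.0739, for Plk2, and 308 genes had an unadjusted p under 0.05, 143 higher and 165 lower. Sets of the 2 groups with the same number deviated together, and with set number as a block 16 genes passed (0.152% of 10518), 9 higher and 7 lower in the combination. Below, "rose" and "fell" are used for these 16, and their adjusted p is that of the limma fit with the block. When only the 2 groups entered the blocked fit, none of the 16 passed and the smallest adjusted p was 0.29 (1 such fit), so the calls rest on the spread pooled over all 15 groups.

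**Figure D1:**
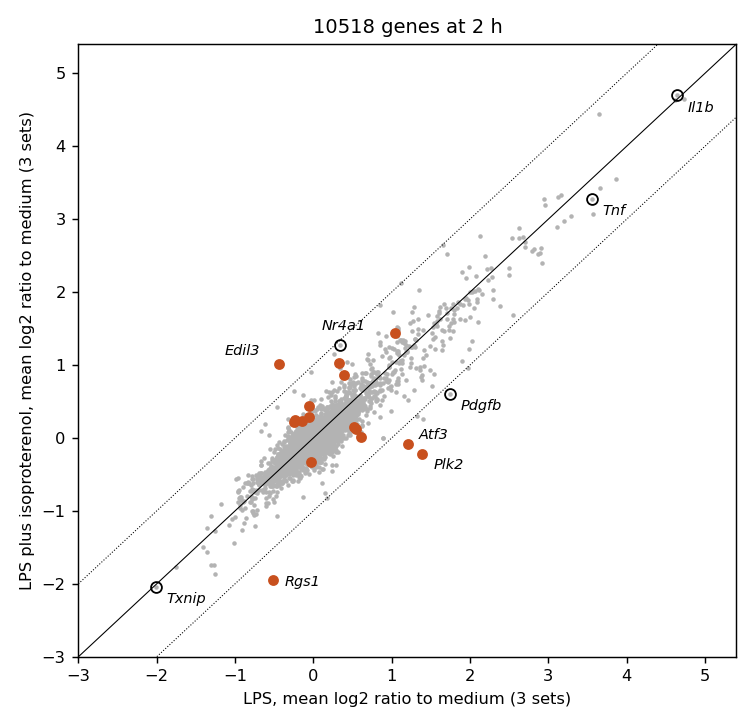
Mean log2 ratio to medium over 3 sets for 10518 genes at 2 h, with LPS on the horizontal and LPS plus isoproterenol on the vertical axis. Filled points are the 16 genes that passed with the set block, open circles other named genes, the solid line equality and dotted lines 2-fold differences. Il1b, Tnf and Txnip lie near the line of equality, and Plk2, Atf3, Rgs1 and Edil3 lie beyond 2-fold.

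Plk2 encodes a kinase of the polo-like family linked to centriole duplication and stress responses, and LPS alone raised its ratio to 1.53, 1.53 and 1.11 in sets 1 to 3. In the combination the ratios were 0.01, −0.05 and −0.62. Every LPS set lay above every set with ISO, and the combination was at or below the medium level. Plk2 fell by 1.61 on the log2 scale (SE 0.245; adjusted p = 0.0015 in limma with the block), or 3.06-fold, and the set differences were −1.52, −1.58 and −1.74. Its 2 probes differed by −1.49 and −1.74. ISO alone held Plk2 at −1.75 against medium (adjusted p = 2.52e-06 in limma; 1.71% of genes were called for ISO alone). The difference between the combination and LPS, −1.61, thus departed from the ratio with ISO alone by 0.14 with a 95% interval of −0.61 to 0.89.

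The Plk2 promoter is shown because it is 1 of 3 promoters among the 55 named genes with a RefSeq window that hold the full cyclic AMP response element. The element searched was TGACGTCA, which reads the same on both strands, in windows of 250 bases before to 50 bases after each start (RefSeq, GRCm38.p6). The Dusp1 promoter, of a MAP kinase phosphatase gene, is printed beside it, and capitals mark the element in the 250 bases before each start, 5′ to 3′. Plk2 lies at chr13:110394794-110395043 on the plus strand and Dusp1 at chr17:26508473-26508722 on the minus strand.
Plk2: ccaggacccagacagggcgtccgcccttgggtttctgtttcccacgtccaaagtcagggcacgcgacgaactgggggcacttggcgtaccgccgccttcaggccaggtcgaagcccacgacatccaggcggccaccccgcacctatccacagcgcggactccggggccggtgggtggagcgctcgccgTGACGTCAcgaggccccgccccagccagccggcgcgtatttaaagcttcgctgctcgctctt
Dusp1: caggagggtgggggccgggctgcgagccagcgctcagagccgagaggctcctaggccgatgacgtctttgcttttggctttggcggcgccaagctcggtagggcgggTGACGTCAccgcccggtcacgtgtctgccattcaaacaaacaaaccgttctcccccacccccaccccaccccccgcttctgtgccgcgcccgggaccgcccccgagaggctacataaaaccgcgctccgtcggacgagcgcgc
The element ended 54 bases before the start of Plk2 and 135 bases before that of Dusp1. In Gusb, a reference gene, it overlapped the start itself. Of all 27025 genes with a window, 2.03% held the full element, as did 2.68% of the 8381 genes on the array with one. The half-site TGACG, on either strand and including those within the full element, stood in 30.7% of the array's genes and in 5 of the 11 called genes with a window, Plk2, Atf3, Dnajb4, Vma21 and Abhd5. These matches describe letters in the window and not binding.

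Atf3 encodes a bZIP repressor that is induced by stress and Toll-like receptor signals and limits cytokine genes. Its ratio was 0.99, 1.30 and 1.32 with LPS and −0.49, 0.29 and −0.05 with LPS plus ISO. The groups did not overlap, and in the combination the gene was near the medium level. Atf3 fell by 1.29 (SE 0.232; adjusted p = 0.00779 in limma with the block), or 2.44-fold, and lay at −2.13 with ISO alone. With arrays scaled to a common spread the call was lost (−1.21, adjusted p = 0.456 in limma with the block).

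Rgs1 encodes a GTPase-activating protein for G protein alpha subunits and was the called gene with the widest spread between LPS sets. Its ratios were 0.30, −0.88 and −0.95 with LPS and −0.66, −2.82 and −2.37 with the combination. Set 1 of the combination lay above sets 2 and 3 of LPS, so the groups overlapped, but within each set number the combination was lower. Rgs1 fell by 1.44 (SE 0.304; adjusted p = 0.045 in limma with the block; 1 without it). ISO alone held it at −2.53, the lowest ISO ratio among the 16 genes.

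The other 4 genes that fell changed less. Dnajb4, a co-chaperone of heat shock proteins, had ratios of 0.54, 0.49 and 0.79 with LPS and −0.27, 0.41 and −0.09 with the combination, and fell by 0.59. Its set 2 difference was only −0.08, against −0.80 and −0.89 in sets 1 and 3. Vma21, an assembly factor of the proton-pumping vacuolar ATPase, fell by 0.42, with set differences between −0.45 and −0.38. Pea15a, a phosphoprotein that binds ERK and death-effector proteins, fell by 0.37. Abhd5, a coactivator of triglyceride lipase, fell by 0.30, from ratios close to 0 with LPS to −0.32, −0.29 and −0.39. Adjusted p for these 4 genes lay between 0.00506 and 0.0376 in limma with the block.

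Edil3 encodes a secreted matrix protein that binds integrins and was the gene that rose most. Its ratio was −0.57, −0.31 and −0.45 with LPS and 1.29, 0.48 and 1.25 with LPS plus ISO. Thus its set means were below medium in every LPS set and above it in every set with ISO. The dye-swapped arrays of a set differed, at −0.777 and 0.159 in LPS set 2 and 0.0288 and 0.936 in set 2 of the combination. With LPS the gene was not called against medium (adjusted p = 0.149 in limma with the block). Edil3 rose by 1.45 (SE 0.307; adjusted p = 0.045 in limma with the block), or 2.74-fold. With arrays scaled the call was lost (1.37, adjusted p = 0.635 in limma with the block). With ISO alone it stood at 2.25, and 11 of the 12 arrays held a value other than 0.

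Antxr2, an anthrax toxin receptor that binds matrix proteins, had ratios of 0.38, 0.13 and 0.47 with LPS and 1.21, 0.68 and 1.20 with the combination. The groups did not overlap, and it rose by 0.70 (SE 0.121; adjusted p = 0.00617 in limma with the block), with ISO alone at 1.00. Acsbg1, an acyl-CoA synthetase, was near medium with LPS (−0.10, 0.03 and −0.10) and at 0.47, 0.41 and 0.45 with ISO added, close to its 0.47 with ISO alone. Carmil1, a regulator of actin capping, rose by 0.47. Smim3, a small membrane protein, was already above medium with LPS (0.91 to 1.19) and reached 1.36 to 1.55. Pkd1l2, of the polycystin family, rose by 0.34 with the tightest set differences of the 16 genes, at 0.36, 0.31 and 0.35.

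Pip4p2, a phosphoinositide phosphatase, Lca5, a protein of the ciliary axoneme, and Fam98a rose by 0.47, 0.46 and 0.39. Pip4p2 had ratios of −0.18, −0.32 and −0.19 with LPS and 0.37, 0.06 and 0.30 with the combination. Lca5 had −0.20, −0.32 and −0.22 with LPS and 0.32, 0.04 and 0.29 with the combination, nearly the same values as Pip4p2. Over all 44 set means, Lca5 correlated with Pip4p2 at r = 0.995 and with Fam98a at r = 0.976, and no other gene exceeded r = 0.9 (the next was Zfp287 at 0.819). These correlations share arrays and medium RNA, each gene had 1 probe, and whether the probes share sequence was not tested.

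**Figure D2:**
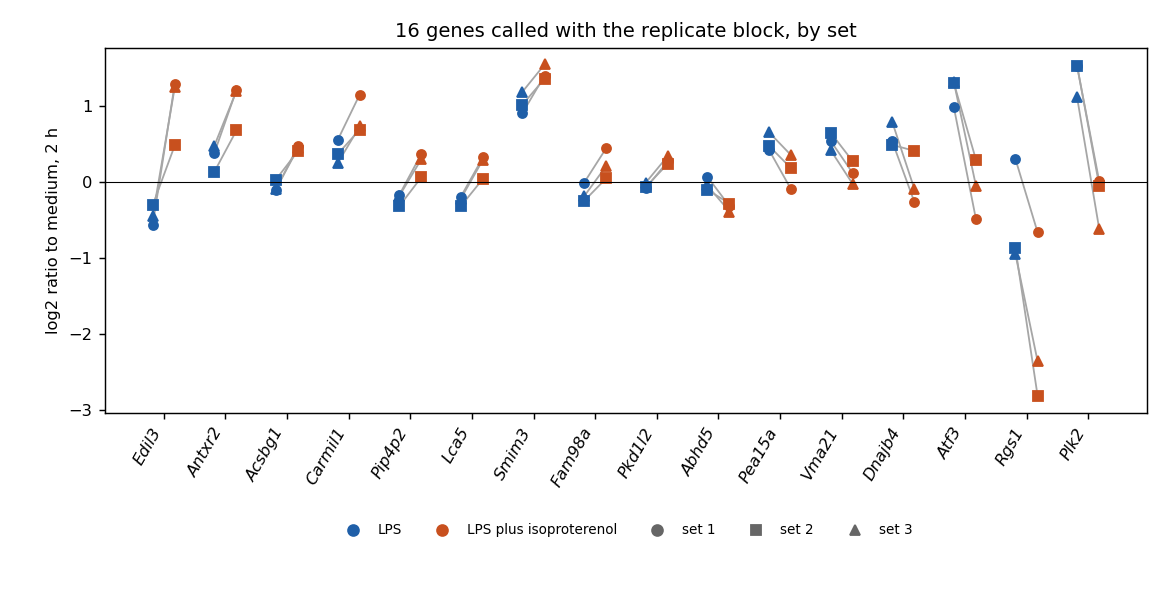
Log2 ratio to medium at 2 h of the 16 genes that passed with the set block, for each of 3 sets with LPS (blue) and LPS plus isoproterenol (orange), with lines joining sets of the same number. Plk2 and Atf3 drop from above 1 to near 0, Edil3 crosses from below to above 0, and the Rgs1 sets overlap between groups.

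Without set 1 the blocked fit called 5 genes, 4 of them among the 16 (Fam98a, Lca5, Pip4p2 and Plk2), and without set 3 it called 2, Lca5 and Pip4p2. Without set 2 it called 17, of which 13 were among the 16, with Pkd1l2, Rgs1 and Vma21 lost. With arrays scaled 9 of the 16 passed, and Acsbg1, Atf3, Dnajb4, Edil3, Pkd1l2, Rgs1 and Vma21 were lost. Leaving out single sets without the block gave 2 calls without LPS set 2 (Hivep3 at −1.04 and Xirp1 at −1.56), 1 without set 2 of the combination (Dnajb4 at −0.785), and 0 otherwise.

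Cytokine genes were strongly induced by LPS, and none of 18 measured differed past the threshold when ISO was added. With LPS, 15 of the 18 were called above medium, as were 15 with LPS plus ISO, against 8.88% and 7.7% of all genes. Their median difference was 0.02, with 10 above 0 and 8 below, beside a median of 0 over all genes. Tnf, the main early inflammatory cytokine, stood at 3.27, 3.50 and 3.90 with LPS and at 2.99, 3.23 and 3.60 with the combination. The difference of −0.28 was of nearly the same size in each set (−0.28, −0.27 and −0.30), and all 3 probes were lower (−0.31, −0.23 and −0.31). It did not pass (adjusted p = 1 in limma; 0.922 with the block; 95% interval −0.76 to 0.19), and the ratios of the groups overlapped.

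Il1b, which encodes interleukin 1 beta, was the highest of the named genes, at 4.65, 4.13 and 5.14 with LPS and 4.55, 4.50 and 5.04 with the combination. The groups overlapped, and the difference was 0.05 with an interval of −0.94 to 1.05. With ISO alone at 2 h Il1b stood at 1.41 against medium (adjusted p = 0.0208 in limma; 1.71% of genes were called). At 1 h the combination differed from LPS by 1.27 for Il1b (block adjusted p = 0.251 in limma). Il1a, its relative, was higher in all 3 sets with ISO (0.80), with ratios of 4.42, 2.82 and 3.69 against 4.88, 3.35 and 5.10. Il6, an acute-phase cytokine, ranged from 0.67 to 3.29 with LPS and from 1.32 to 3.51 with the combination. Il10, an anti-inflammatory cytokine that CREB is known to regulate, differed by 0.21 (interval −0.49 to 0.90). Neither the Il1a nor the Il6 difference passed (0.80 and 0.65; block adjusted p = 1 for both in limma).

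Tnfsf9, the ligand of the co-stimulatory receptor 4-1BB, had ratios of 2.27, 1.97 and 1.71 with LPS and 1.36, 1.42 and 0.89 with LPS plus ISO. The groups did not overlap, and the difference was −0.76 (adjusted p = 0.294 in limma with the block). Ifnb1, the gene of interferon beta, was 2.76, 2.96 and 4.99 with LPS and 1.32, 3.24 and 4.64 with the combination, so the sets disagreed in direction. Il12b, a subunit of interleukin 12, was within 0.35 of medium in every set of both groups.

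Among 18 chemokines, 10 were called above medium with LPS and 11 with the combination (8.88% and 7.7% of all genes), and the median difference was −0.03. Their widest differences, Cxcl2 at −0.89 and Ccl3 at 0.75, rest on few values: Cxcl2 was other than 0 on 2 of 12 arrays and Ccl3 on 5. With exact zeros treated as missing Ccl3 turned to −0.23. The 15 NF-kB genes had a median ratio of 1.56 in both groups, with 14 called above medium for LPS and 13 for the combination, against the same 8.88% and 7.7% of all genes. Nfkbia, the IkB alpha inhibitor, differed by −0.34 but was other than 0 on 5 of 12 arrays. Rel, an NF-kB subunit, differed by −0.39 (block adjusted p = 0.691 in limma). Among 29 interferon-related genes the median difference was 0.02, and Irf8, a myeloid interferon regulatory factor, was lower in each set (−0.40 on average; block adjusted p = 0.237 in limma).

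**Figure D3:**
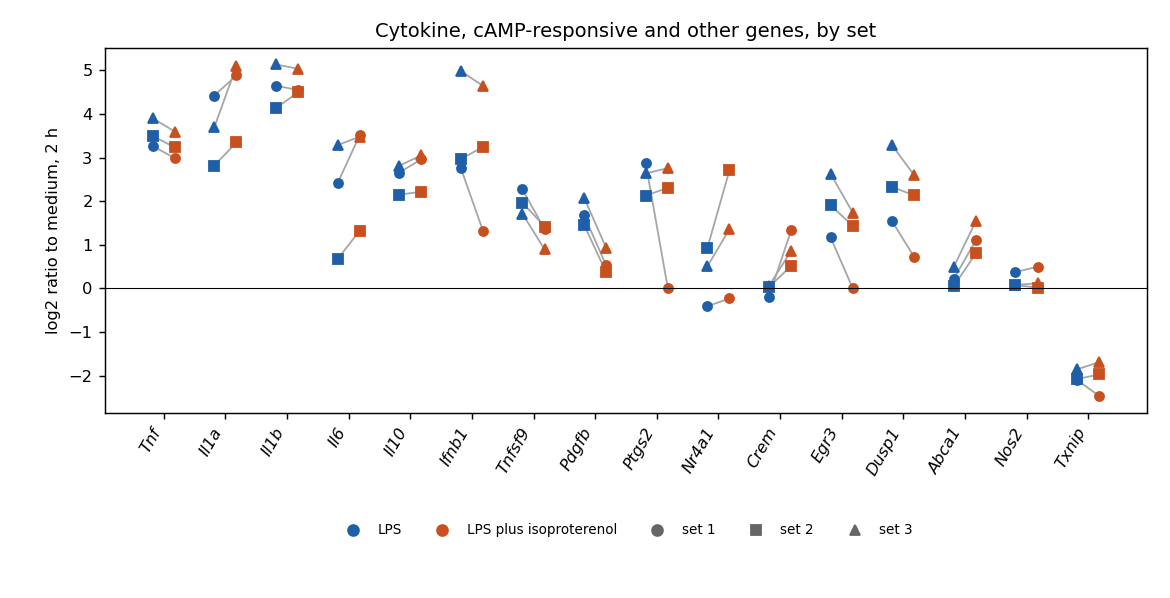
Log2 ratio to medium at 2 h for 16 cytokine, cyclic AMP-responsive and other genes named by rule, for each of 3 sets with LPS (blue) and LPS plus isoproterenol (orange), with lines joining sets of the same number. Il1b and Tnf stay above 2.9 in every set of both groups, and the Ptgs2 and Egr3 points at 0 in set 1 of the combination are values listed at exactly 0.

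Of 23 measured immediate early transcription factors, 17 were below 0 and 12 were lower in all 3 sets, beside 5083 and 1510 of all 10518 genes. Their median difference was −0.24, the lowest of the 27 lists, and their median ratio to medium was 1.07 with LPS and 0.55 with the combination. Atf3 was the only member called. Egr3, a zinc-finger factor, was next at −0.84 (block adjusted p = 0.531 in limma), with ratios of 1.17, 1.91 and 2.63 with LPS and 0, 1.44 and 1.74 with the combination. The groups overlapped, and set 1 of the combination was listed at exactly 0. Without that set, and with LPS set 1 kept, the difference was −0.315. Same-numbered sets of Egr3 differed by −1.17, −0.47 and −0.89. Ier2 differed by −0.54, Egr2 by −0.52 and Jund by −0.44. Junb and Jun, which pair with Fos in AP-1, differed by 0.07 and 0.01, but Junb was other than 0 on only 3 of 12 arrays. Klf4, a factor of myeloid differentiation, was higher in each set (0.55).

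The list of MAP kinase phosphatases and mRNA decay factors also held Elavl1, Spry1 and Spry2, which are neither. Of its 12 measured members 9 were below 0, beside 5083 of all 10518 genes. Their median was −0.15, and none was called. Dusp1, whose promoter is shown above, stood at 1.53, 2.33 and 3.28 with LPS and 0.71, 2.13 and 2.59 with the combination. The groups overlapped, and the difference was −0.57 (interval −1.51 to 0.38). Same-numbered sets of Dusp1 differed by −0.82, −0.19 and −0.69 (block adjusted p = 0.59 in limma). Among 11 regulators of G protein signalling 9 were below 0, with a median of −0.04. Rgs2 differed by −0.62, but its 2 probes disagreed (0.53 on 8 of 12 arrays with a value and −1.76 on 12). Probes also disagreed in sign for Ccr1, Gusb, Il1b and Txnip.

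The 27 measured cyclic AMP and CREB target genes did not move one way: 14 were above 0 and 13 below, with a median difference of 0.01 and no member called. Nr4a1, an orphan nuclear receptor induced within minutes to hours by cyclic AMP, stood at −0.41, 0.92 and 0.50 with LPS and −0.23, 2.71 and 1.36 with the combination. Its set means were higher in each set, by 0.18, 1.79 and 0.86, but it did not pass (block adjusted p = 0.14 in limma). The sign in set 1 rests on an array of the combination listed at exactly 0. The other array of that set stood at −0.465, beside the −0.41 of LPS set 1. Crem, which encodes CREB-like activators and the repressor ICER, was near medium with LPS (−0.19, 0.03 and 0.06) and above it in each set with ISO (1.33, 0.51 and 0.86). The groups did not overlap, and the difference of 0.93 had a block adjusted p of 0.165 in limma. Odc1, the first enzyme of polyamine synthesis, differed by 0.37, Cytip by 0.61 and Tgm2, a transglutaminase, by 0.52.

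Genes of the receptors and enzymes of the cyclic AMP pathway differed by at most 0.45 in either direction, in 23 measured members with a median of −0.03. Ptger2 and Ptger4, receptors for prostaglandin E2 that raise cyclic AMP, differed by 0.45 and −0.37. The beta-2 adrenergic receptor gene was not analysed here.

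Among growth factor, lipid and metabolic genes several differences had the same sign in all sets without a call. Pdgfb, a growth factor subunit, had ratios of 1.68, 1.46 and 2.08 with LPS and 0.53, 0.37 and 0.93 with LPS plus ISO. The groups did not overlap and the set differences lay between −1.16 and −1.09, yet its block adjusted p was 0.122 (0.465 without the block; limma). Abca1, a cholesterol exporter, was higher in each set (0.88, 0.75 and 1.05), and Pfkfb3, an activator of glycolysis, differed by 0.62. Timp1, a metalloproteinase inhibitor, had ratios of 1.06, 1.36 and 2.68 with LPS and 1.80, 2.36 and 3.42 with the combination. The groups overlapped, and the difference of 0.83 ranged from 0.379 without set 3 of the combination to 1.32 without LPS set 3. Same-numbered sets of Timp1 differed by 0.73, 1.005 and 0.74. Ptgs2, the inducible cyclooxygenase, was 2.88, 2.13 and 2.64 with LPS and 0, 2.31 and 2.76 with the combination, the 0 being a value listed at exactly 0. The mean difference was −0.86 over 3 sets and 0.15 without set 1. Nos2, the inducible nitric oxide synthase, was within 0.50 of medium in every set. Txnip, an inhibitor of thioredoxin, was far below medium in both groups (−2.01 and −2.04).

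**Figure D4:**
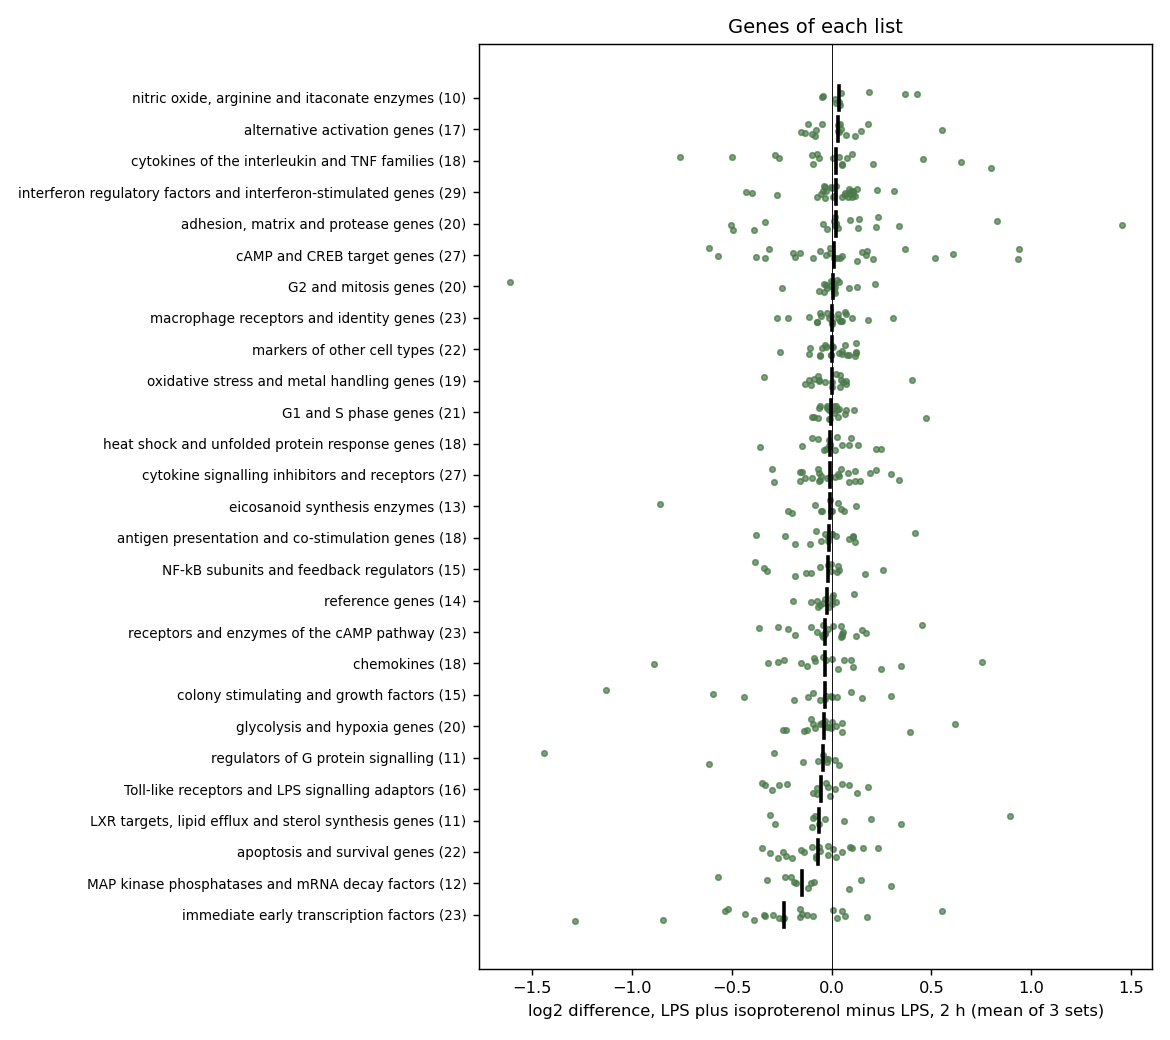
Log2 difference, LPS plus isoproterenol minus LPS at 2 h, for each measured gene of the 27 lists (points, mean of 3 sets), with the list median as a bar and the number of genes in parentheses. Medians lie between −0.24 and 0.04, lowest for immediate early transcription factors, and single genes such as Plk2, Rgs1, Atf3 and Edil3 lie far from their lists.

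The departure from additivity is the difference between the combination and LPS, minus the ratio of ISO alone to medium. The first term holds both the presence of ISO and the absence of lipid binding protein, which cannot be told apart. The last term rests on the ISO-alone arrays, whose dye swaps correlated at only −0.0587 to 0.152 across probes. One gene passed without the block (0.00951% of 10518), Cnnm2, a magnesium-transport-related membrane protein. Its ratios were 1.11, 0.82 and 1.09 with ISO alone and 0.15, 0.18 and 0.19 with LPS plus ISO, while LPS alone left it at −0.04. Cnnm2 was thus 1.01 above medium with ISO alone and 0.21 above LPS in the combination, a difference of −0.80 (95% interval −1.01 to −0.59; adjusted p = 8.36e-05 in limma). With only the groups compared in the fit it did not pass, and the smallest adjusted p over all genes was 0.481.

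With the block, 14 genes departed from additivity (0.133% of 10518), including Cnnm2. In 9 of them the combination was below the sum of the single treatments. Ier3, an early response gene of NF-kB, had ratios of 2.62 with LPS, 1.26 with ISO and 2.88 with both. Tgm2 had 1.28, 1.73 and 1.80, Cebpb, a bZIP factor of myeloid cells, 1.18, 0.91 and 1.17, and Cd83, a maturation marker, 3.66, 1.17 and 3.42. C5ar1, a complement receptor, had 1.20, 0.70 and 1.20, and Clec4e, a C-type lectin receptor, 2.27, 0.78 and 2.34. Tgm2 with both ligands (1.80) lay close to its ratio with ISO alone (1.73). The genes listed so far stood nearer to LPS alone than to the sum of both ligands when ISO was added. They were named because they departed from that sum, on its lower side. Ptger4 ran the other way: it was −1.26 with ISO alone and −0.53 with both, beside −0.16 with LPS. None of the 16 genes that differed between LPS plus ISO and LPS departed from additivity with the block, where their adjusted p was 0.0936 or higher in limma. That does not show that their effects add.

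The same comparison at 1 h and 4 h placed these differences in time. At 1 h 2 genes passed without the block (0.019%), Plk2 and Nr4a1, and 6 with it (0.057%). At 4 h 10 genes passed without the block (0.0951%) and 53 with it (0.504%). Plk2 differed by −1.75 at 1 h, −1.61 at 2 h and −0.65 at 4 h, with adjusted p of 0.000728, 0.0015 and 0.449 in limma with the block. Nr4a1 differed by 2.42, 0.94 and 0.09, with set differences of 2.66, 2.38 and 2.22 at 1 h. Edil3 differed by 0.11, 1.45 and 0.46, and Rgs1 by −1.56, −1.44 and −0.56.

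Of the 16 genes, Plk2, Rgs1 and Smim3 also passed at 1 h with the block. At 4 h Abhd5, Antxr2, Carmil1, Lca5, Pea15a, Pip4p2, Pkd1l2 and Vma21 passed with the block, each in the direction seen at 2 h. Pea15a differed by −0.13, −0.37 and −0.41 at 1, 2 and 4 h, and Abhd5 by −0.01, −0.30 and −0.43. No gene passed a test of the change of the difference itself, either from 1 h to 2 h (0 genes with or without the block in limma, 283 with an unadjusted p under 0.05 without it) or from 2 h to 4 h (0 with or without it, 187). For Nr4a1 the change from 1 h to 2 h was −1.47 (block adjusted p = 0.325 in limma).

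**Figure D5:**
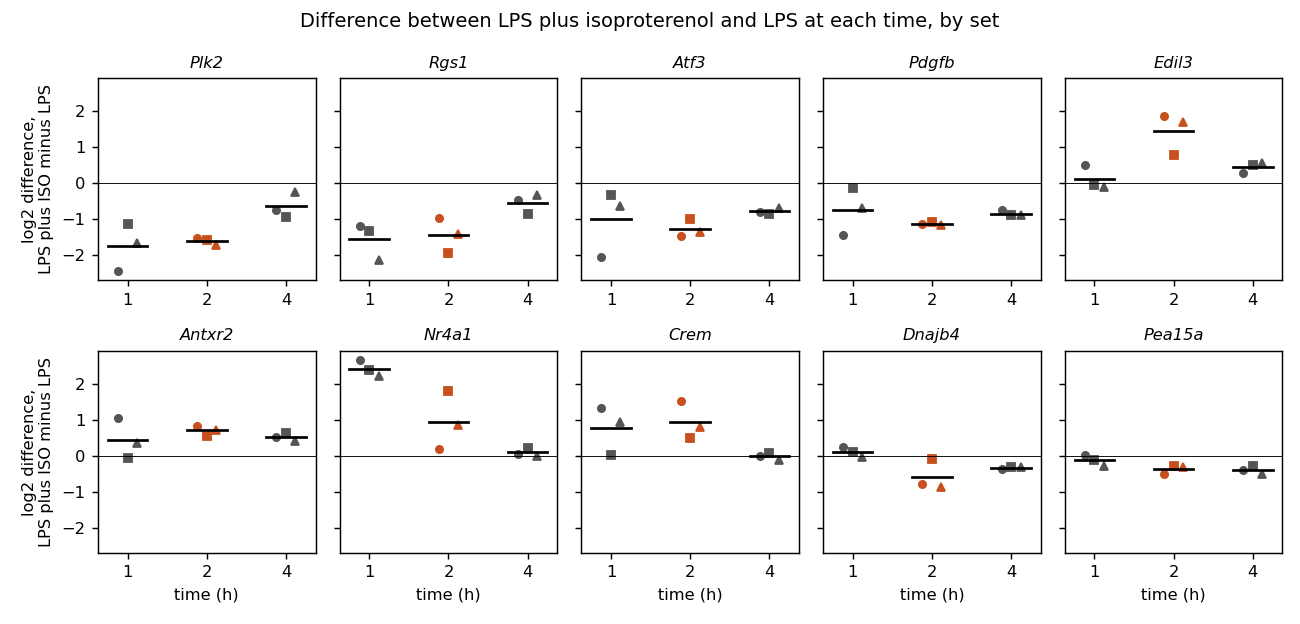
Log2 difference, LPS plus isoproterenol minus LPS, by set (circle, square and triangle for sets 1, 2 and 3) at 1, 2 and 4 h for 10 named genes, with the mean as a bar and 2 h in orange. Nr4a1 averages 2.42 at 1 h and 0.09 at 4 h, and Edil3 is farthest from 0 at 2 h.

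PGE2 also raises cyclic AMP, through its own receptors, and LPS plus PGE2 at 2 h was set directly against LPS plus ISO. No gene differed between the combinations (0 with or without the block in limma, 168 with an unadjusted p under 0.05 without it), which does not show that they act alike. For Plk2 the direct difference was −0.42 (95% interval −1.035 to 0.19), for Edil3 0.70 (−0.08 to 1.48) and for Pdgfb −0.65 (−1.20 to −0.10). Both combinations were compared with the same LPS arrays, so their differences from LPS are given side by side only. The labels name no lipid binding protein for either combination. In both differences from LPS, the added ligand and the absence of that protein cannot be told apart. Plk2 was −1.61 from LPS with ISO and −1.19 with PGE2, Atf3 −1.29 and −0.85, Rgs1 −1.44 and −1.08, and Edil3 1.45 and 0.75. With the block 3 genes differed between LPS plus PGE2 and LPS (0.0285%), Pip4p2, Lca5 and Fam98a, at 0.37, 0.40 and 0.31.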

How the data were processed

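The authors deposited 1 table of log2 ratios per probe and array from 2-colour custom Agilent arrays, per the labels and the series design. Image analysis, normalization and the meaning of exact zeros are not stated there, no intensities were used, and scale and direction were inferred from the values. Ratios were turned to treated over medium by the dye labels, dye-swapped arrays averaged, and 13260 probes with 1 annotated gene averaged to 10518 genes (symbols from the platform annotation, updated through RefSeq; of 16281 probes, 2491 were unlisted, 52 named several genes and 478 were 0 on every array).

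In R 4.3.3 with limma 3.58.1, 44 pair means were fitted with a mean for each of 15 groups (lmFit, eBayes without trend, 29 residual and 2.678 prior degrees of freedom). Tests were two-sided, adjusted by Benjamini-Hochberg over all genes at 0.05. Set number within time entered a second fit as a block. Deviations of LPS and LPS plus ISO sets with the same number correlated at 0.544, 0.6 and 0.505 (other numbers −0.435 to −0.12). As deviations were taken from each group's own mean, the values for other numbers are not independent of those for the same number. The pairing thus comes from the data, since the labels do not say what a number shares. Intervals are 95% without the block, and SE beside a block p is with it.

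The naming rule took up to 15 highest and 15 lowest of the called genes with the same sign in 3 sets and a value other than 0 on 8 of 12 arrays, up to 4 called members of each of 27 lists (2 by size where none was called), and a fixed list. As no gene was called without the block, the first part was applied to the blocked calls. Jund, Ier2, Egr2, Jun, Junb, Cytip, Tgm2 and the genes that departed from additivity were chosen after their values were seen. The comparison and the lists were chosen with earlier results of these data known. The scripts were tested on simulated data. Alternatives were the block, the fitted groups, zeros as missing, scaling, centring, probe choice and leaving out sets. The sets left out were those of LPS and of LPS plus ISO at 2 h, each in turn.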

Additional observations from a re-analysis of the deposited data

Results flagged for a closer look

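Cnnm2 stood out because its difference between LPS plus ISO and LPS departed, by the test of that departure, from its ratio of ISO alone to medium. Lipid binding protein is labelled for LPS alone only, so the presence of ISO and the absence of that protein cannot be told apart in the first term. The departure from additivity at 2 h was −0.797 (limma), with ratios to medium of −0.04 for LPS, 1.01 for ISO and 0.17 for LPS plus ISO. Each group held only 3 sets. Single sets of LPS and of LPS plus ISO were left out in turn, but those of ISO alone were not.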

How the results depend on the processing

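For LPS plus ISO against LPS, where 0 genes passed, the replicate block gave 16 calls and the restriction to genes often other than 0 gave 1 (Plk2). Leaving out single sets gave 0 to 2 calls, and with the block 2 to 17 (5 without set 1). With the block, exact zeros as missing gave 19 calls (15 of the 16), centring 16 and scaling 15 (9 of the 16). Alternatives that join the block with another choice were added after seeing the data. The 16 genes kept their direction in all 21 settings, the main fit included. This was largely fixed beforehand, since each had the same sign in all 3 sets. Leaving out a set number could not turn that sign, and the block itself does not change the estimate. The block left 0 calls in the tests of 2 h minus 1 h, of 4 h minus 2 h and of LPS plus ISO against LPS plus PGE2. It raised the calls against LPS from 2 to 6 at 1 h, from 10 to 53 at 4 h and from 0 to 3 for LPS plus PGE2 at 2 h. For the departure from additivity, 1 gene passed, against 14 with the replicate block, 2 with zeros as missing, 4 after scaling, 0 with only the groups compared and 1 to 2 without single sets. Ccl3 turned to −0.227 with zeros as missing and to −0.0857 with the block as well, and Gusb to 0.0398 with the probe measured on most arrays. Turns of sign were looked for only in the 74 genes named by rule. Leaving out single sets turned the sign of 14 uncalled genes among them, and the cause was not tested. Their ranges without the block were −0.837 to 0.144 for Nfkbia, −0.893 to 0.0424 for Irf1, −0.395 to 0.0438 for Ptgis, −0.612 to 0.0826 for Cish, −0.0548 to 0.263 for Krt19, −0.0303 to 0.235 for Ywhaz, −0.2 to 0.301 for Il1b, −0.076 to 1.37 for Il6, −0.0964 to 0.209 for Il12b, −1.29 to 0.373 for Ifnb1, −0.108 to 0.135 for Nos2 and −0.209 to 0.181 for Txnip. With the block and without set 1 the values were 0.149 for Ptgs2, 0.0203 for Ptgis, −0.0291 for Mcm2, −0.024 for Krt19, −0.046 for Il12b, −0.00862 for Nos2 and 0.136 for Txnip, and without set 2 −0.102 for Il1b. The number of arrays limits precision, and signal over background is unknown.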
